A study of Macaca mulatta with 7 samples.

Results

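Genes of the reactive glial response were followed through rhesus monkey (Macaca mulatta) spinal cord. They are the filament genes GFAP and VIM, the secreted proteins SERPINA3 and CHI3L1, the metallothionein MT2A, the cytokine receptor subunit OSMR, the transcription factor STAT3, its inhibitor SOCS3 and the hyaluronan receptor CD44. The 9 genes were taken by symbol from 28966 symbols or identifiers in the matrices, and each symbol matched 1 identifier. The data are 7 libraries of single-nucleus RNA-seq, 1 in each group, in which the RNA of a nucleus is barcoded inside a droplet and its molecules are counted by unique identifiers (UMIs). Cervical, thoracic and lumbar cord without injury, from an adult age of 5 years, gave 3 of them. The other 4 came from the spared lumbar cord of monkeys with a complete injury at thoracic level, taken 7 and 14 days post injury (dpi) from animals aged 7 years, and 30 dpi and 6 months post injury (mpi) from animals aged 6 years. The study's methods give a single animal for the 3 intact segments, and time after injury, animal, age and library cannot be told apart. Nuclei are not replicates, no test between groups was made, and each interval below is a 95% interval that covers counting error only.

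Astrocytes respond to injury of the central nervous system by thickening their GFAP and vimentin filaments and by secreting proteins that the liver releases in inflammation. Cytokines of the interleukin-6 family, among them oncostatin M, bind receptors that share the subunit gp130. The attached JAK kinases then phosphorylate STAT3, which enters the nucleus and activates its targets, among them SOCS3, which in turn blocks the receptor. CD44 binds hyaluronan and osteopontin outside the cell and is carried by fibrous astrocytes and by many leukocytes.

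The libraries held 45079131 to 150987900 UMIs, and 63730 of 69332 barcodes were kept, with medians of 3191 to 7355 UMIs per nucleus. Pairs of libraries shared 12 to 36 barcodes, at most 0.379% of the smaller library. Clustering without the 9 genes and the gene lists used below gave 5 main classes, named from markers and given as "-like". Among intact libraries the cervical cord gave 882 astrocyte-like nuclei, the thoracic 1448 and the lumbar 977, and there were 95, 252, 143 and 110 at 7, 14 and 30 dpi and 6 mpi. Their 8 astrocyte markers summed to 4472 to 7767 UMIs per 1000000 UMIs of the class (CPM) in intact and 5368 to 6584 CPM in injured libraries. The 9 microglial markers summed to 20.4 to 91.1 CPM in the same nuclei of intact and 67.1 to 188 CPM of injured libraries, and their part in the results was not tested. In a class, more RNA of a gene per nucleus and a shift in the kinds of nuclei cannot be told apart from the CPM. Clusters were made without integration of libraries: astrocyte-like nuclei lie in clusters 11 and 14 and OPC-like nuclei in cluster 7 in all libraries, whereas microglia-like nuclei of intact and injured libraries lie mostly in different clusters of the same name. The same holds for oligodendrocyte-like nuclei at 7, 14 and 30 dpi, but at 6 mpi 782, 315 and 63 nuclei lie in clusters 1, 2 and 9 with the intact ones, and 417 and 359 in clusters 5 and 6.

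STAT dimers bind the palindrome TTCNNNGAA, so the promoters of the 9 genes were searched for it, on both strands at once since the motif reads the same on each. The window ran from 250 bases before to 50 bases after each gene start of the RefSeq annotation on Mmul_10. Of 21102 such windows of protein-coding genes, 1476 held the motif, or 6.99%. The MT2A window was among them, with the first motif base 203 bases before the gene start. The stretch around it is shown because MT2A, a stress protein, is among the members with the largest differences given below. It reads 5′ to 3′ on the gene's strand with the motif in capitals.
MT2A, chr20:43816433-43816501, plus strand: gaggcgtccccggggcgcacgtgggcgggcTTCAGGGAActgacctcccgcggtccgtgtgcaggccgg
A match describes the letters and is no measured binding site. The windows of GFAP, VIM, SERPINA3, CHI3L1, STAT3, OSMR and CD44 held no match. Among these are SERPINA3 and CHI3L1, whose ratios in astrocyte-like nuclei at 7 dpi, given below, are larger than that of MT2A. The genes lie at chr16:56169389-56180984 (GFAP, minus strand), chr9:18373874-18383435 (VIM, plus), chr7:156782203-156794320 (SERPINA3, plus), chr1:60679271-60687110 (CHI3L1, minus), chr20:43816666-43817565 (MT2A, plus), chr16:53439266-53524562 (STAT3, minus), chr16:74717689-74719374 (SOCS3, minus), chr6:38680616-38777959 (OSMR, plus) and chr14:30238717-30330444 (CD44, minus).

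In astrocyte-like nuclei at 7 dpi, 7 of the 9 genes stood higher than in intact lumbar cord by the rule used here, and STAT3 and OSMR did not pass it. A gene was called where the interval of its ratio to intact lumbar cord lay wholly beyond 2-fold and its level lay outside the range of the 3 intact libraries. It was tested where the injured and the 3 intact libraries together held at least 20 UMIs. In this comparison 5.38% of all genes tested were called higher. At 14 dpi GFAP, VIM, SERPINA3 and CHI3L1 were called higher, 4 of 8 tested, against 2.17% of all genes. At 30 dpi GFAP, SERPINA3, CHI3L1, MT2A and CD44 were called, 5 of 8, against 2.46%. At 6 mpi GFAP and CHI3L1 were called, 2 of 8, against 2.10%. SOCS3 had too few UMIs in these last 3 comparisons. No member was called lower in astrocyte-like nuclei, where 0.864%, 0.535%, 0.817% and 0.473% of all genes were at the 4 times.

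**Figure D1:**
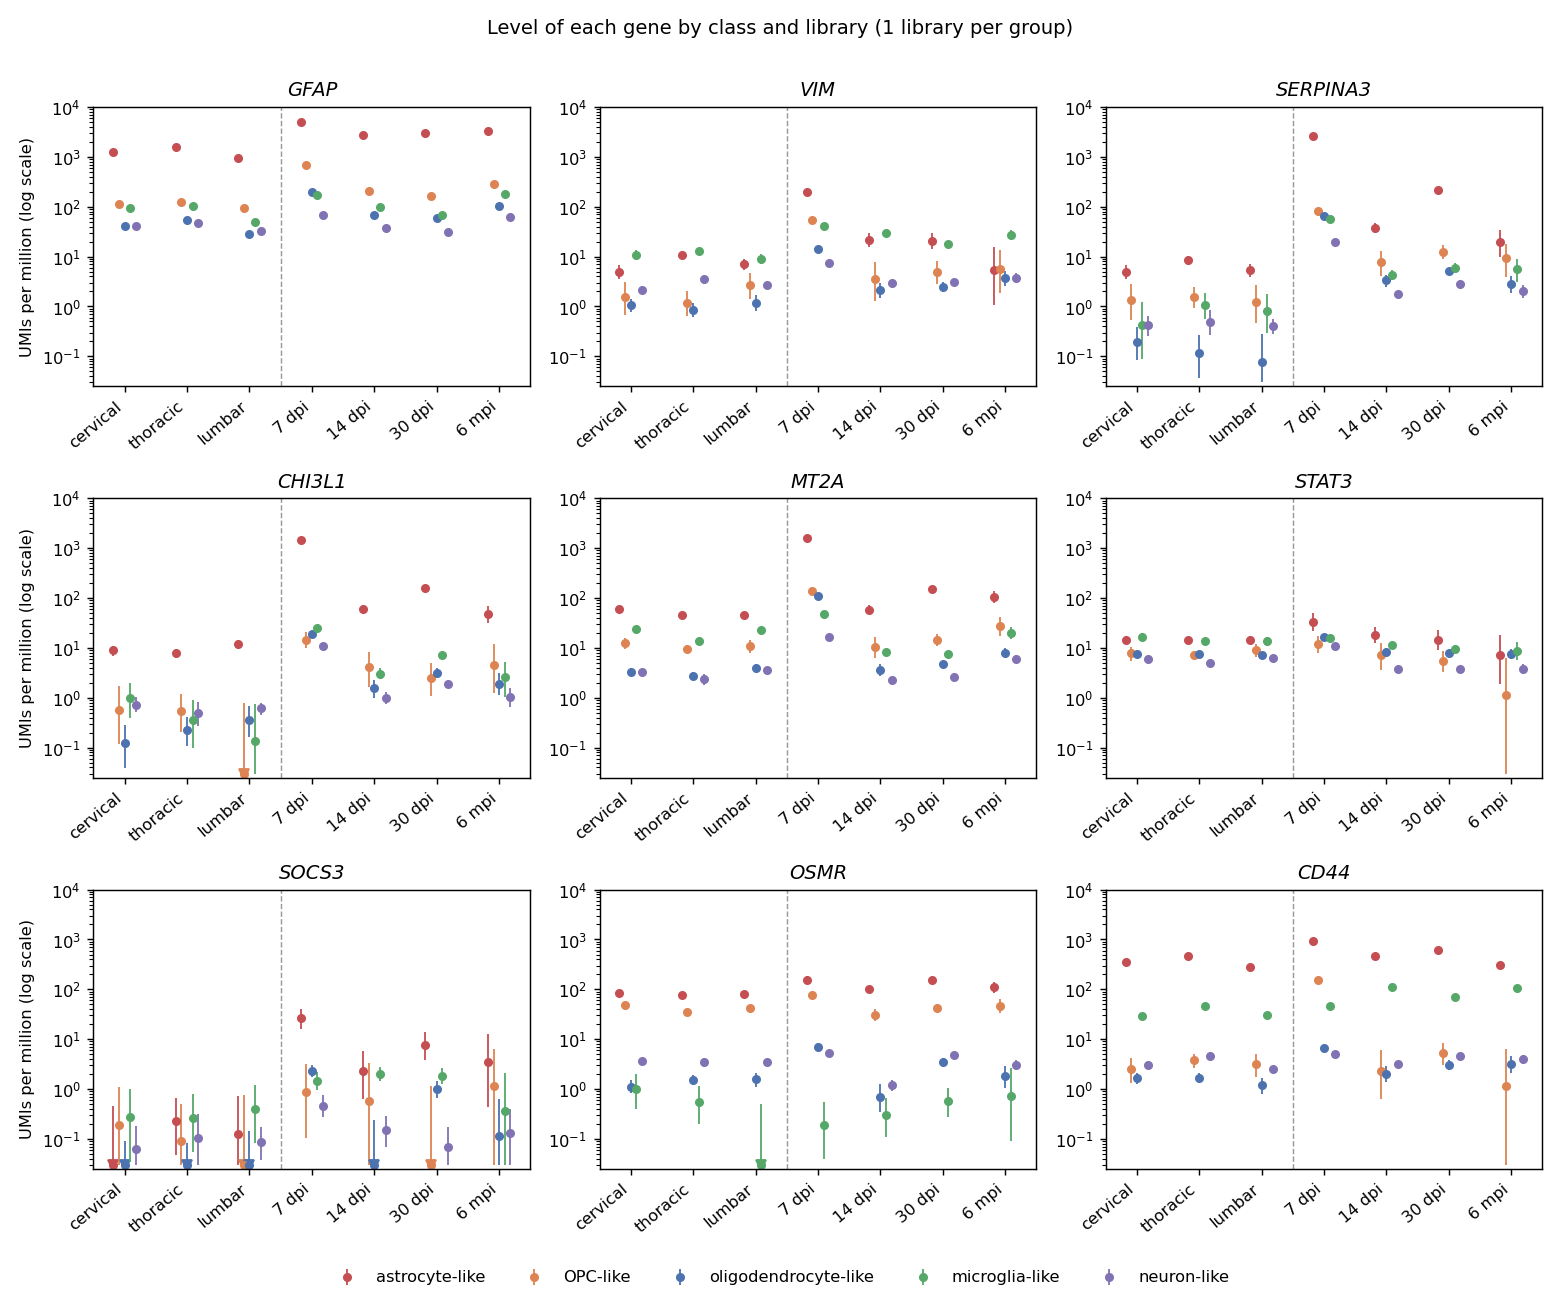
Level of each of the 9 genes (CPM, log axis) in 5 classes of nuclei, against the 7 libraries from intact cervical cord to lumbar cord at 6 mpi. Points are class sums, bars are 95% Poisson intervals and triangles mark 0 UMIs. In astrocyte-like nuclei SERPINA3 stood at 4.99 to 8.43 CPM in the intact libraries and at 2653 CPM at 7 dpi.

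GFAP encodes the main intermediate filament of astrocytes. It stood at 1228 CPM in astrocyte-like nuclei of intact cervical cord, 1549 CPM in thoracic and 945 CPM in lumbar cord, and at 4977, 2771, 3013 and 3277 CPM at 7, 14 and 30 dpi and 6 mpi. Every injured library lay above the 3 intact ones, and the ratio to intact lumbar cord was 5.27 (5.07 to 5.47), 2.93 (2.83 to 3.04), 3.19 (3.07 to 3.31) and 3.47 (3.29 to 3.65). VIM encodes vimentin, the filament of immature and reactive astrocytes. It stood at 4.99, 10.9 and 7.01 CPM in the intact segments and at 195, 21.8, 21.0 and 5.29 CPM after injury. The 7 dpi library was apart from the rest, at a ratio of 27.8 (20.3 to 38.5), while 6 mpi, with 3 UMIs, lay within the intact range. Without the 5 nuclei with most VIM UMIs the 7, 14 and 30 dpi levels were 85.1, 11.3 and 6.66 CPM, and the 14 dpi call was lost. GFAP was thus above the intact range in all 4 injured libraries and VIM in 3 of the 4, at 14 and 30 dpi by the UMIs of few nuclei.

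SERPINA3 encodes alpha-1-antichymotrypsin, a secreted protease inhibitor of the acute phase. In astrocyte-like nuclei it stood at 4.99, 8.43 and 5.36 CPM in intact cervical, thoracic and lumbar cord, then at 2653, 37.9, 216 and 19.4 CPM. All 4 injured libraries lay above the intact ones, with ratios of 495 (365 to 689), 7.07 (4.73 to 10.7) and 40.4 (29.2 to 57.2) in the first 3. At 6 mpi the ratio was 3.62 (1.68 to 7.16), not called, from 11 UMIs. Few nuclei carried the 7 dpi level: 5 of the 95 held 77.8% of the SERPINA3 UMIs, 1 nucleus held 587, and the median nucleus held 1. Without the 5 nuclei the level was 648 CPM (591 to 709), still above every intact library, at 30 dpi it was 68.7 CPM and at 6 mpi 1.86 CPM, from 1 UMI. CHI3L1 encodes a chitinase-like protein, also called YKL-40, that reactive astrocytes and macrophages secrete. Its levels were 8.88, 7.74 and 11.9 CPM in the intact segments and 1439, 59.1, 162 and 47.6 CPM after injury, above the intact range each time. Its ratios were 121 (98.2 to 152), 4.98 (3.73 to 6.67), 13.7 (10.7 to 17.6) and 4.02 (2.52 to 6.22), and without the 5 nuclei with most UMIs of CHI3L1 the 7 dpi level was 810 CPM. The 6 mpi call was lost without the 5 nuclei. After thinning of nuclei to 1000 UMIs the CHI3L1 log2 ratio at 6 mpi was -0.55, in the other direction but from few UMIs and without an interval. Thinning also ended the 14 dpi calls of SERPINA3 and CHI3L1. Both secreted proteins were highest at 7 dpi and stood higher at 30 dpi than at 14 dpi.

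MT2A encodes a metallothionein, a small protein that binds zinc and copper and that stress hormones and cytokines induce. Metallothionein genes are near copies of one another, so reads may have been split among them. MT2A stood at 61.1, 44.7 and 45.4 CPM in astrocyte-like nuclei of intact cervical, thoracic and lumbar cord, and at 1634, 58.5, 155 and 106 CPM after injury. The 14 dpi library lay within the intact range and the other 3 above it, at ratios of 36.0 (32.0 to 40.6), 3.41 (2.87 to 4.04), lost after thinning, and, not called, 2.33 (1.74 to 3.07). The UMIs of MT2A were spread more widely over nuclei than those of SERPINA3, since the median nucleus at 7 dpi held 9 and 79 of 95 nuclei held 3 or more. With each nucleus thinned to 1000 UMIs, 64.2% (53.7 to 73.8) of astrocyte-like nuclei at 7 dpi had an MT2A UMI, against 3.69% (2.59 to 5.06) in intact lumbar cord. Unthinned, the shares were 91.6% and 21.9% at medians of 7859 and 6991 UMIs. In neuron-like nuclei, given for comparison and not free of a difference in this gene (its call in them is given below), the thinned shares were 1.59% and 0.531% and the unthinned ones 23.5% and 10.4%, at medians of 25808 and 26482 UMIs.

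OSMR encodes the subunit that pairs with gp130 to bind oncostatin M. It stood at 84.3, 78.3 and 80.8 CPM in astrocyte-like nuclei of the 3 intact segments and at 157, 99.8, 153 and 111 CPM after injury. All 4 injured libraries lay above the intact ones by less than the rule asks, with ratios of 1.95 (1.59 to 2.36), 1.23 (1.04 to 1.46), 1.90 (1.62 to 2.22) and 1.38 (1.04 to 1.78). STAT3 RNA stood at 14.2, 14.5 and 14.7 CPM in the intact segments and at 33.7, 18.4, 14.7 and 7.06 CPM after injury, the last from 4 UMIs. Its ratio at 7 dpi was 2.30 (1.45 to 3.52), not called, and the counts measure its RNA, not its phosphorylation. SOCS3, which a STAT3 response switches on, had 0, 3 and 1 UMIs in the intact segments and 21, 4, 11 and 2 after injury, or 26.2, 2.29, 7.70 and 3.53 CPM. The 7 dpi ratio of 206 (33.1 to 8500) rests on 1 UMI in intact lumbar cord and has the width that this implies, and without the 5 nuclei with most SOCS3 UMIs the 7 dpi level was 11.1 CPM from 8 UMIs and the call was lost, as it was after thinning.

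CD44 stood at 362, 457 and 276 CPM in astrocyte-like nuclei of intact cervical, thoracic and lumbar cord and at 924, 460, 623 and 309 CPM after injury. The levels at 7 and 30 dpi lay above all 3 intact ones, at ratios of 3.35 (3.07 to 3.64) and 2.26 (2.08 to 2.44) to intact lumbar cord, the lowest of them. The 14 dpi level lay close to the highest intact one, in thoracic cord, and the 6 mpi level within the intact range. Without the 5 nuclei with most CD44 UMIs the 30 dpi level was 522 CPM and the call was lost, as it was after thinning. Among these nuclei 7 dpi was the highest library for each of the 9 genes. The order of the other injured libraries varied between genes: 30 dpi came next for SERPINA3, CHI3L1, MT2A, SOCS3, OSMR and CD44, and 6 mpi for GFAP. For OSMR the 7 and 30 dpi levels, 157 and 153 CPM, had intervals that overlap, as did those of VIM at 14 and 30 dpi.

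In the precursors of oligodendrocytes (OPC-like nuclei) 6 of 8 members tested were called higher at 7 dpi, against 2.57% of all genes. These were GFAP, VIM, SERPINA3, CHI3L1, MT2A and CD44. CD44, also called at 7 dpi in astrocyte-like and oligodendrocyte-like nuclei, stood here at 2.51, 3.77 and 3.13 CPM in the intact segments, at 157 CPM at 7 dpi, and at 2.35, 5.27 and 1.15 CPM later, so 1 library was high and none of the others exceeded 5.27 CPM. Its 7 dpi ratio was 50.1 (30.0 to 90.5), and most of its UMIs lay in 40 nuclei that are described below. MT2A followed a like course, with 12.6, 9.48 and 10.8 CPM in the intact segments, 137 CPM at 7 dpi at a ratio of 12.6 (9.40 to 17.3), and 10.6, 14.6 and 27.6 CPM later. OSMR in this class stood at 35.9 to 47.7 CPM in intact libraries and at 75.7 CPM at 7 dpi, a ratio of 1.79 (1.45 to 2.20) that was not called. CHI3L1 had 0 UMIs in intact lumbar cord and 33 at 7 dpi, a ratio of 23.2 when set against a floor of 3 counts, given without an interval. At 14 dpi SERPINA3 was called, 1 of 7 tested, against 0.795% of all genes. At 30 dpi it was again SERPINA3, 1 of 7, against 1.22%, and at 6 mpi SERPINA3 and GFAP, 2 of 7, against 1.31%. Thinning ended the VIM and CHI3L1 calls at 7 dpi and the 3 SERPINA3 calls from 14 dpi on. The SERPINA3 log2 ratio at 30 dpi was then -0.84, in the other direction but from few UMIs and without an interval. The SERPINA3 calls at 14 dpi and 6 mpi were lost with free RNA subtracted, as described below. The one at 6 mpi, from 8 UMIs, was also lost without the 5 nuclei with most UMIs. None of the members tested was called lower in this class, in which the rule took 0.5%, 0.533%, 0.652% and 0.222% of all genes in order of time.

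In oligodendrocyte-like nuclei, the myelin-forming cells, intact lumbar cord had 1460, 1333 and 620 nuclei in clusters 1, 2 and 9, and 7 dpi had 1761 and 1846 in clusters 5 and 6, so the class level compares different clusters. In this class 8 of 9 members were called higher at 7 dpi, against 5.16% of all genes, with STAT3 the exception at a ratio of 2.31 (1.93 to 2.78). MT2A stood at 3.34, 2.79 and 3.90 CPM in the intact segments, at 109 CPM at 7 dpi and at 3.59, 4.70 and 7.92 CPM later. Its 7 dpi ratio was 27.9 (22.8 to 34.5), and at 14 dpi its level was back within the intact range. SOCS3 had 0 UMIs in all 3 intact libraries and 51, 0, 28 and 1 UMIs in the injured ones in order of time. Against a floor of 3 counts in intact lumbar cord the ratio was 19.6 at 7 dpi and 8.64 at 30 dpi, given without an interval. OSMR stood at 1.12 to 1.57 CPM in the intact libraries and at 7.04, 0.705, 3.46 and 1.81 CPM after injury, called at 7 dpi alone with a ratio of 4.47 (3.14 to 6.50). At 14 dpi GFAP and SERPINA3 were called, 2 of 8 tested, against 2.58% of all genes. At 30 dpi SERPINA3, CHI3L1 and SOCS3 were called, 3 of 9, against 2.50%, and at 6 mpi GFAP, SERPINA3 and CHI3L1, 3 of 8, against 3.81%. Of these 8 calls from 14 dpi on, GFAP at 6 mpi was the one kept after thinning, which also ended the SOCS3 call at 7 dpi. With free RNA subtracted GFAP at 14 dpi and SERPINA3 and SOCS3 at 30 dpi were kept. In that step STAT3 stood at 7.07 CPM at 7 dpi and 9.30 CPM at 6 mpi, against 0.905 to 3.24 CPM in the intact libraries. No member tested was called lower here, against 1.59%, 1.47%, 1.72% and 1.20% of all genes from 7 dpi to 6 mpi.

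Most microglia-like nuclei of each injured library formed a cluster of their own: 2060 nuclei of intact lumbar cord lay in cluster 0, 3322 at 7 dpi in cluster 8, 4306 at 14 dpi in cluster 3, 2628 at 30 dpi in cluster 10 and 768 at 6 mpi in cluster 16. MT2A was called lower and CD44 higher at some times in this class. At 7 dpi GFAP, VIM, SERPINA3 and CHI3L1 were called higher, 4 of 8 tested, against 5.10% of all genes. MT2A, not called at 7 dpi, stood at 23.4, 13.8 and 22.8 CPM in the intact segments and at 48.5, 8.28, 7.40 and 19.9 CPM after injury. It was called lower at 14 dpi, with a ratio of 0.363 (0.291 to 0.453) in a comparison where 2.82% of all genes were called lower, and at 30 dpi, with 0.325 (0.257 to 0.411), where 3.81% were. CD44 stood at 28.8, 45.5 and 30.8 CPM in the intact segments and at 46.3, 114, 69.8 and 106 CPM after injury. It was high at the later times, and was called at 14 dpi with a ratio of 3.70 (3.22 to 4.26) and again at 6 mpi with 3.45 (2.89 to 4.12). The class leaves out the GPNMB- and CHIT1-led clusters, which held 52, 236, 1000 and 1239 nuclei from 7 dpi to 6 mpi, against 1068 microglia-like nuclei at 6 mpi. With them counted as microglia-like, CD44 stood at 30.2 to 48.7 CPM in the intact and 52.7, 136, 161 and 246 CPM in the injured libraries and was called at 30 dpi too, VIM was called at 30 dpi and CHI3L1 at 6 mpi as well, and the higher calls in the class went from 14 to 17. VIM at 6 mpi stood at 78.7 CPM with them and at 27.7 CPM without, and CHI3L1 had 88 UMIs with them. At 14 dpi VIM, SERPINA3, CHI3L1 and CD44 were called higher, 4 of 8 tested, against 3.13% of all genes. At 30 dpi SERPINA3 and CHI3L1 were, 2 of 9, against 3.69%, and at 6 mpi GFAP, VIM, SERPINA3 and CD44, 4 of 6, against 2.81%. The calls of SERPINA3 from 14 dpi on and of CHI3L1 at 14 dpi were lost after thinning. The 6 mpi call of SERPINA3, from 15 UMIs, was lost without the 5 nuclei with most UMIs. With free RNA subtracted its log2 ratio was -0.92, from 1 UMI against 5 in intact lumbar cord, with intervals that overlap. That step left 0 UMIs of GFAP at 7 dpi and 6 mpi and of SERPINA3 at 7, 14 and 30 dpi, as it does by construction in the lowest class. CHI3L1 at 14 dpi was left with 5 UMIs, against 1 in intact lumbar cord, and its call was lost. Both lower calls of MT2A were lost after thinning and the one at 14 dpi also without the 5 nuclei. OSMR was at 0 to 0.983 CPM in microglia-like nuclei of all libraries, and STAT3 ratios ran from 0.652 to 1.16 without a call. At 7 dpi and 6 mpi no member tested was called lower, against 3.56% and 1.35% of all genes.

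In neuron-like nuclei VIM, SERPINA3, CHI3L1, MT2A and SOCS3 were called higher at 7 dpi, 5 of 9, against 2.25% of all genes. After thinning SERPINA3 was the one of them still called. The log2 ratio of VIM was then -0.023, in the other direction but from few UMIs and without an interval. The SOCS3 call was lost without the 5 nuclei with most UMIs, and with free RNA subtracted both SOCS3 and VIM were lost. SERPINA3 stood at 0.417, 0.496 and 0.403 CPM in the intact segments and at 19.99, 1.78, 2.89 and 2.06 CPM after injury. It was the 1 member called of 9 at 14 dpi, against 2.01% of all genes, and the 1 of 8 at 6 mpi, against 2.17%. At 30 dpi SERPINA3 and CHI3L1 were called, 2 of 8, against 2.07%. OSMR was called lower at 14 dpi, at 1.19 CPM against 3.57 CPM in intact lumbar cord, a ratio of 0.335 (0.255 to 0.434), where 1.23% of all genes were called lower. In the other 3 libraries no member tested was lower by the rule, against 0.972%, 1.30% and 0.727% of all genes. None of the calls from 14 dpi on, higher or lower, was kept after thinning. Thinning to 1000 UMIs takes away most UMIs of this class, whose medians were 21205 to 38912 UMIs per nucleus in the injured libraries. SERPINA3 had 106, 170 and 46 UMIs before it at 14 and 30 dpi and 6 mpi. With so few left, a call lost by thinning in this class does not decide whether the difference holds.

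Smaller groups of nuclei carried some members too. In a cluster with vessel and fibroblast markers of the 3 intact libraries OSMR stood at 432, 441 and 240 CPM and VIM at 387, 167 and 215 CPM. Ependymal-like nuclei, which line the central canal, held VIM at 71.7 to 124 CPM in intact libraries and 36.3 to 211 CPM in the 3 injured ones with enough nuclei. Clusters led by GPNMB and CHIT1, with 1 to 23 nuclei in each intact library, held CD44 at 531, 490, 372 and 358 CPM and VIM at 101, 69.7, 74.1 and 119 CPM from 7 dpi to 6 mpi. T cell-like nuclei held CD44 at 406 to 534 CPM in 4 libraries, and no OSMR UMI.

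Free RNA, which leaks into all droplets of a library, adds UMIs of an abundant gene to nuclei that do not make it. The members were therefore compared across classes per nucleus and with 80 other genes particular to astrocyte-like nuclei, which had at least 50 CPM there and at least 10 times the level of each other main class in the 3 intact libraries. At 7 dpi SERPINA3 gave 2238 UMIs per 100 nuclei in the astrocyte-like class, 51.4 in the OPC-like, 37.1 in the oligodendrocyte-like, 25.8 in the microglia-like and 60.8 in the neuron-like class. The 4 other classes thus lay between 25.8 and 60.8 UMIs per 100 nuclei. As a share of the astrocyte-like CPM, SERPINA3 reached 3.14%, 2.41%, 2.16% and 0.753% in these 4 classes. The median of the 80 astrocyte genes was 1.22%, 0.488%, 0.396% and 1.08% and their 90th percentile 9.08%, 2.99%, 2.01% and 7.68%, so SERPINA3 exceeded that percentile in the microglia-like class. CHI3L1 gave 8.97, 11.0, 11.2 and 33.4 UMIs per 100 nuclei, and its share of the astrocyte-like CPM stayed under the 90th percentile in all 4 classes. For both genes these shares depend on the few astrocyte-like nuclei with most UMIs, without which the astrocyte-like levels were lower, as given above. Against those lower levels, with the percentiles left as they are, the shares would be larger. SERPINA3 would then pass the 90th percentile in the OPC-like and oligodendrocyte-like classes too, and CHI3L1 in the microglia-like class. From which nuclei these UMIs came was not tested.

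MT2A, CD44 and OSMR spanned wider ranges over the classes outside the astrocyte-like one at 7 dpi. MT2A gave 84.5 UMIs per 100 nuclei in the OPC-like, 63.2 in the oligodendrocyte-like, 21.8 in the microglia-like and 50.8 in the neuron-like class, and at 6.66% and 2.97% of the astrocyte-like CPM the oligodendrocyte-like and microglia-like levels passed the 90th percentile. CD44 gave 96.7 UMIs per 100 OPC-like nuclei and 3.95 per 100 oligodendrocyte-like nuclei, or 17.0% and 0.737% of the astrocyte-like CPM. OSMR gave 46.7 UMIs per 100 OPC-like and 0.0866 per 100 microglia-like nuclei, or 48.2% and 0.123%. CD44 and OSMR thus passed the 90th percentile of the astrocyte genes in the OPC-like class. By the CPM given above, CD44 passed it in the microglia-like class too, and OSMR in the oligodendrocyte-like class. In the microglia-like class OSMR lay below the median of the astrocyte genes. When the lowest number of UMIs per nucleus over the 5 classes of a library was subtracted from each class as free RNA, SERPINA3 at 7 dpi went from 189 to 94 UMIs in OPC-like and from 1408 to 430 in oligodendrocyte-like nuclei, MT2A went from 2397 to 1569 UMIs in oligodendrocyte-like nuclei, and CD44 from 356 to 341 in the OPC-like class. Other genes lose UMIs in this step too, so the CPM and ratios after it are taken over smaller class totals. CHI3L1 in the OPC-like class and VIM and CD44 in the oligodendrocyte-like class, all called higher before, had no UMI left. The microglia-like class was the lowest for SERPINA3, MT2A and GFAP and is set to 0 for them by construction, as is the lowest class of any gene.

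**Figure D2:**
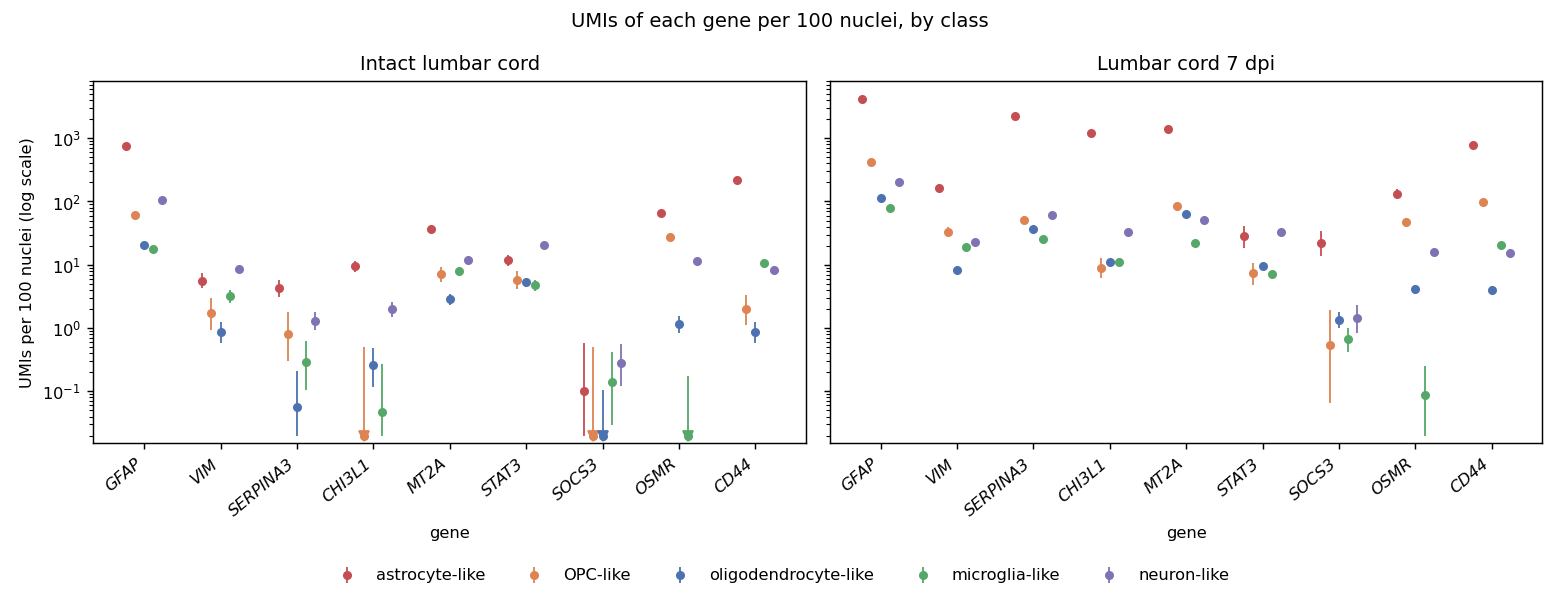
UMIs per 100 nuclei (log axis) of the members at 7 dpi and in intact lumbar cord, by class of nuclei, with 95% Poisson intervals and triangles at 0 UMIs. At 7 dpi SERPINA3 spans 25.8 to 60.8 outside the astrocyte-like class, whereas CD44 spans 3.95 to 96.7.

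The UMIs of CD44 in OPC-like nuclei lay in few nuclei. At 7 dpi 320 of 368 nuclei had none, 8 had 1, and the 40 with 2 or more held 348 of the 356 UMIs, up to 32 in a nucleus. In intact lumbar cord 730 of 739 nuclei had none. The 40 nuclei held more of some other members than the 320 without CD44: GFAP at 1804 against 470 CPM, VIM at 247 against 17.1 CPM and OSMR at 179 against 55.7 CPM. CHI3L1 stood at 11.8 against 15.5 CPM and STAT3 at 11.8 against 12.3 CPM, and SOCS3 had 0 against 2 UMIs. Their OPC markers summed to 10899 against 19505 CPM, with PDGFRA, the receptor that defines these cells, at 288 against 885 CPM. The 8 astrocyte markers summed to 1981 against 893 CPM, of which GLIS3 gave 1340 against 99.0 CPM, while the water channel AQP4 stood at 8.82 against 28.9 CPM. Whether they are precursors, astrocytes or droplets with more than 1 nucleus was not tested.

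In oligodendrocyte-like nuclei at 7 dpi SERPINA3 was absent from 2972 nuclei, had 1 UMI in 644 and 2 or more in 180, with up to 59 in a nucleus. The 180 nuclei had SOCS3 at 10.7 CPM against 1.68 CPM in nuclei without SERPINA3, and MT2A at 185 against 104 CPM. Their astrocyte markers summed to 109 against 117 CPM and their oligodendrocyte markers to 11020 against 12668 CPM, at medians of 8184 and 4410 UMIs. Split by MT2A in place of SERPINA3, the 510 nuclei with 2 or more UMIs had SERPINA3 at 120 against 53.2 CPM, SOCS3 at 5.84 against 1.12 CPM and OSMR at 13.6 against 5.99 CPM. GFAP was higher as well in the 180 nuclei, at 263 against 189 CPM. Nuclei with 1 UMI lay between the others for some genes and not for others: the 644 with 1 SERPINA3 UMI had GFAP at 191 CPM, about the level of the nuclei without SERPINA3, and MT2A at 95.1 CPM and SOCS3 at 1.42 CPM, below them. The 810 with 1 MT2A UMI had SOCS3 at 2.41 CPM, between the others, and SERPINA3 at 46.4 CPM and OSMR at 4.45 CPM, below the nuclei without MT2A. In neuron-like and microglia-like nuclei split by SERPINA3 in the same way, MT2A stood at 13.9 against 16.8 CPM and at 44.6 against 49.3 CPM.

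**Figure D3:**
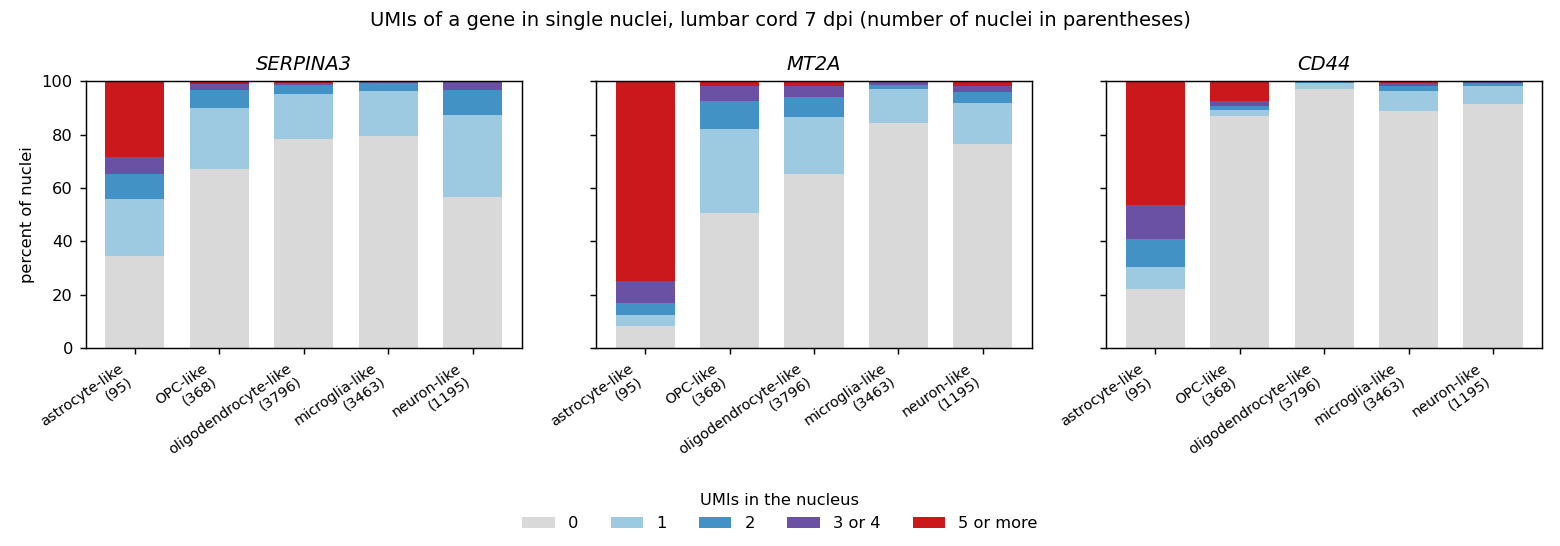
Percent of nuclei (linear axis, stacked bars) by the number of UMIs of a gene in a single nucleus at 7 dpi. Bars stand for the classes of nuclei, and panels for SERPINA3, MT2A and CD44. At 7 dpi CD44 had 2 or more UMIs in 40 of 368 OPC-like nuclei and SERPINA3 in 180 oligodendrocyte-like nuclei.

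Astrocyte-like nuclei fall into a kind high in IL33 and VCAN and a kind high in SLC1A2 and ITPRID1, gene pairs by which the study describes white and gray matter astrocytes. In intact lumbar cord the kinds, taken from sub-clusters of 507 and 470 nuclei, held CD44 at 594 and 35.4 CPM and GFAP at 1682 and 387 CPM. At 7 dpi the kinds held 61 and 34 nuclei, but of other sub-clusters: the SLC1A2 and ITPRID1 kind was 469 of 470 nuclei from sub-cluster 1 in intact lumbar cord and 34 of 34 from sub-cluster 4 at 7 dpi. The IL33 and VCAN kind lay mostly in sub-clusters 0 and 2 in intact lumbar cord, with 227 and 249 nuclei, and in sub-cluster 3 at 7 dpi, with 54 of 61. GFAP stood at 5372 and 4314 CPM, so the kinds lay closer together than in intact cord. CD44 stood at 1371 and 174 CPM, VIM at 289 and 36.7 CPM, SERPINA3 at 4141 and 160 CPM, CHI3L1 at 1955 and 574 CPM and MT2A at 2064 and 912 CPM. OSMR was alike in both, at 159 and 154 CPM. Few astrocyte-like nuclei held most of the SERPINA3 UMIs at 7 dpi, as given above. Its level in each kind therefore depends on where those nuclei fell, and no level of the kinds without them was computed. Grouping nuclei by which gene pair they held more of, which gave 13 and 76 nuclei, left SERPINA3 at 3630 and 2549 CPM, so its ratio between the kinds was 25.8 by one grouping and 1.42 by the other. The gene pair grouping compares UMIs without scaling, though SLC1A2 is the most abundant of these genes. It reached 8272 CPM in sub-cluster 1, against IL33 at 452.5 and VCAN at 891 CPM in sub-cluster 0. The SLC1A2 and ITPRID1 kind thus went from 34 to 76 nuclei and took in nuclei of the other kind by sub-cluster. By that grouping CD44 stood at 1685 and 757 CPM, VIM at 531 and 142 CPM, CHI3L1 at 2291 and 1328 CPM, MT2A at 2619 and 1403 CPM and GFAP at 5289 and 4977 CPM. The members higher in the IL33 and VCAN kind went from 9 to 7, since OSMR, at 152 and 161 CPM, and STAT3, at 25.3 and 32.0 CPM, turned direction. Within each kind, and so between different sub-clusters, SERPINA3, CHI3L1, MT2A and GFAP at 7 dpi were above intact lumbar cord, on the log2 scale by 8.52, 6.83, 4.64 and 1.68 in the IL33 and VCAN kind and by 7.48, 6.20, 5.74 and 3.48 in the other.

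**Figure D4:**
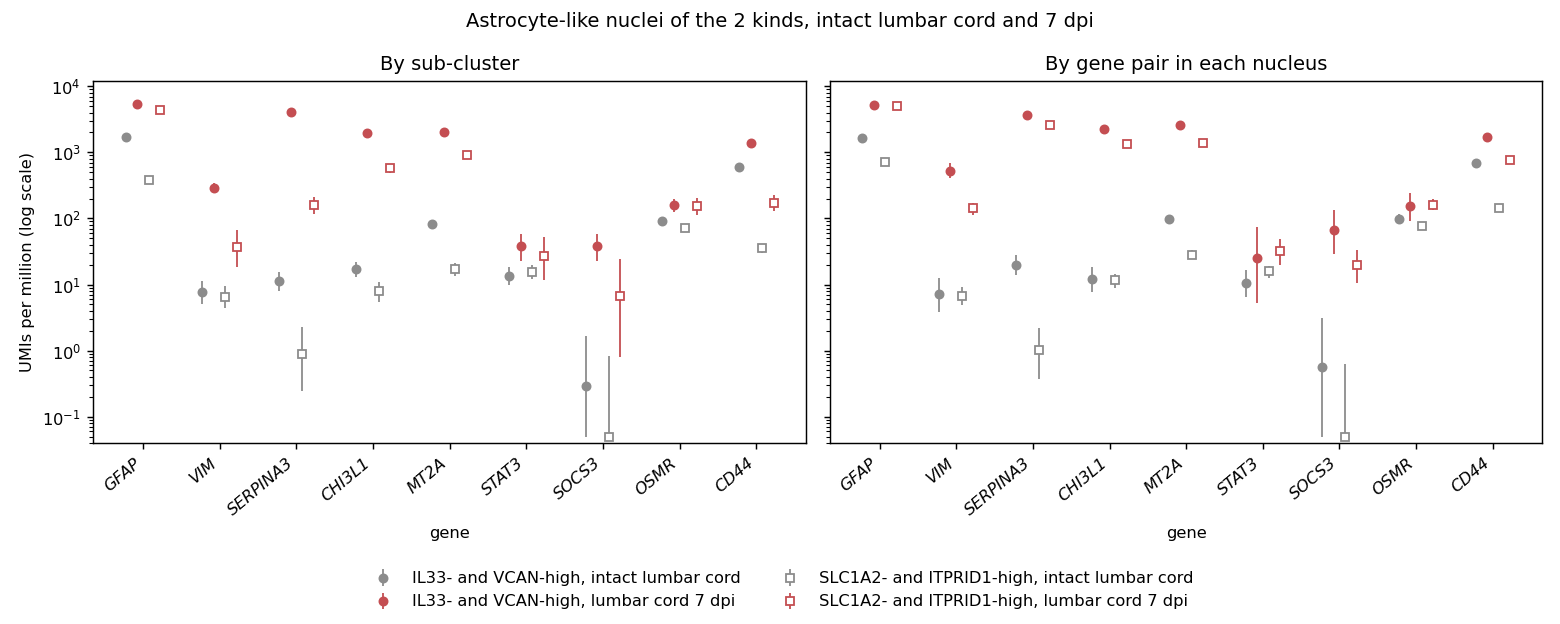
Level of the members (CPM, log axis) in the 2 kinds of astrocyte-like nuclei, in intact lumbar cord and at 7 dpi, with 95% Poisson intervals. Kinds are taken by sub-cluster in one panel and by gene pair in each nucleus in the other. By sub-cluster CD44 stood at 594 and 35.4 CPM in the IL33- and VCAN-high and the SLC1A2- and ITPRID1-high kind in intact lumbar cord. At 7 dpi it stood at 1371 and 174 CPM.

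Lists of related genes, chosen with earlier results of these data known, were counted by the same rule. Of all genes, 5.38%, 2.17%, 2.46% and 2.10% were called higher in astrocyte-like nuclei from 7 dpi to 6 mpi. Given how the lists were chosen, a count above these shares is not an independent result. In astrocyte-like nuclei 6 of 9 tested acute-phase genes were called higher at 7 dpi, 3 of 8 at 14 dpi, 5 of 9 at 30 dpi and 3 of 8 at 6 mpi, with list medians of 2.89 at 7 dpi, 2.10 at 30 dpi and 1.74 at 6 mpi against 0.23, 0.08 and 0.21 for all genes. After thinning 4 of the 6, 0 of the 3, 1 of the 5 and 1 of the 3 calls were kept, and the list calls in this class, over all lists without the members, went from 64 to 20. SERPING1, the inhibitor of complement C1, was called in all 4, of which thinning kept 7 dpi, and stood at 15.7, 24.6 and 15.3 CPM in the intact segments and 114, 45.3, 70.7 and 51.2 CPM after injury. Ceruloplasmin, CP, which carries copper, went from 5.84 to 8.35 CPM in the intact segments to 131, 20.1, 99.4 and 30.0 CPM, and the complement proteases C1S and CFB were called in at least 3 libraries as well. Genes of reactive astrocytes were called higher in 14 of 22, 3 of 21, 7 of 21 and 3 of 21 cases, of which 5, 1, 2 and 1 were kept after thinning. Among them were the annexin partner S100A10 (72.4 CPM at 7 dpi, 1.91 to 6.51 CPM intact), the matrix protein TNC (376 CPM at 6 mpi, 73.8 to 109 CPM intact) and CD109, and of these S100A10 was not kept in any library. Of the CD44 partners SPP1, or osteopontin, was called at each time, at 9.82 to 19.99 CPM in intact and 42.4 to 120 CPM in injured libraries. It was called higher also in OPC-like nuclei at 7 and 14 dpi and in microglia-like and neuron-like nuclei at 14 and 30 dpi. Which cells its UMIs came from was not tested. The metallothioneins, MT2A included, had 3 of 4 called higher at 7 dpi, 0 of 4 at 14 dpi, 2 of 4 at 30 dpi and 0 of 4 at 6 mpi.

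Signalling genes were counted in the same way. In astrocyte-like nuclei SOCS2 was the feedback inhibitor called in 3 libraries, at 0.383 to 0.852 CPM intact and 6.24, 4.02 and 4.90 CPM at 7, 14 and 30 dpi, from 5, 7 and 7 UMIs, and none of the 3 calls was kept after thinning. STAT3 target genes were called higher in 3 of 13, 1 of 14, 1 of 13 and 0 of 13 cases and lower in 1, at 30 dpi, and none of the higher calls was kept after thinning. Of the gp130 ligands 2 could be tested and none was called at the 4 times, and the receptor list had 1 of 6 called higher and 1 lower at 7 dpi and 1 lower at 14 dpi. In microglia-like nuclei SOCS2 was lower in 3 libraries (1.17 to 2.98 CPM intact, 0.339 to 0.552 CPM at 7 to 30 dpi, from 6, 11 and 6 UMIs), whereas the adhesion molecule ICAM1 (2.96 to 4.48 CPM intact, 13.6 to 23.4 CPM after injury) and the repressor BCL6 (23.9 to 27.8 CPM intact, 56.0 to 129 CPM after injury) were higher. In this class 5.10%, 3.13%, 3.69% and 2.81% of all genes were called higher and 3.56%, 2.82%, 3.81% and 1.35% lower from 7 dpi to 6 mpi. The STAT3 target list as a whole had 3 of 16 called higher and 3 lower at 7 dpi, with CEBPB, CEBPD and STEAP4 lower, 3 and 0 of 18 at 14 dpi, 2 and 2 of 17 at 30 dpi, with CEBPD and VEGFA lower, and 0 and 0 of 16 at 6 mpi, the lower genes being named after their values were seen. Its median log2 ratio was -0.37, 0.63, 0.40 and 0.05 from 7 dpi to 6 mpi, against 0.03, -0.10, -0.12 and 0.13 for all genes tested. In these nuclei LGALS3, ANXA1, ANXA3 and CD109 were also called in at least 3 libraries. The complement component C3, itself among the leading genes of microglia cluster 8, was called higher in oligodendrocyte-like nuclei at all 4 times (1.77 to 2.49 CPM intact, 5.06 to 10.96 CPM after injury) and in neuron-like nuclei at 3 (2.50 to 3.97 and 7.78 to 11.5 CPM). Microglial markers summed to 9.17 to 18.2 CPM in intact and 22.8 to 40.3 CPM in injured oligodendrocyte-like nuclei, and to 63.8 to 93.1 and 87.9 to 119 CPM in neuron-like nuclei. With free RNA subtracted none of the C3 calls in oligodendrocyte-like nuclei was kept. ITIH3 in oligodendrocyte-like and LCN2 in neuron-like nuclei were called lower in 3 libraries each, and none of these calls was kept after thinning. Since thinning takes away most UMIs of neuron-like nuclei, its result does not decide the LCN2 calls.

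Over the 35 points of 5 classes and 7 libraries, which share libraries and class depth, the genes whose log2(CPM + 1) followed each member most closely were found by Pearson's r. For GFAP they were S100A16 (r = 0.963), WWTR1 and SLC9A3R1, and for VIM S100A10 (r = 0.884), TNFRSF12A and FABP5. SERPINA3 and CHI3L1 were each other's nearest gene (r = 0.947), followed by REG1A and SERPINA5 for the first and SERPINA5 and S100A6 for the other. MT2A was followed by S100A6 (r = 0.926), MT1E and S100A16, and SOCS3 by the unnamed ENSMMUG00000061959 (r = 0.914), CHI3L1 and SERPINA5. OSMR was closest to MIR9-1HG (r = 0.968), the unnamed ENSMMUG00000052732 and ARHGAP42, and CD44 to ANXA1 (r = 0.940), MTAP and RAB13. STAT3 had the lowest of these values, with ZSWIM7 (r = 0.837), LAMTOR1 and CHP1.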

How the data were processed

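The authors isolated nuclei by dounce homogenisation, prepared 10x Chromium libraries, aligned reads to Mmul_10 with Cell Ranger 6.0.0 and deposited whole UMI counts per nucleus, not normalised. The annotation release is not given in the sources used here. Symbols of the matrices were completed for 959 identifiers from a RefSeq table, and identifiers of 1 symbol were summed. Nuclei were kept above 500 genes and 1000 UMIs, below 10% UMIs of mitochondrial and 5% of hemoglobin genes, and the 5% with the highest Scrublet scores (scanpy 1.11.5) per library were removed. Clustering used 2000 variable genes without members and list genes, 30 components, 20 neighbours and the Leiden method (leidenalg 0.10.2, resolution 1), without integration. Clusters with markers of several classes stayed unnamed. Levels and exact Poisson and conditional binomial intervals were computed with Python 3.11.15, numpy 2.4.6, scipy 1.17.1 and pandas 2.3.3, and tested on simulated data. The 9 members were all named, from each list the genes called in at least 3 injured libraries in a class and direction, at most 4, and for each member the 3 most correlated genes with 20 CPM at 1 point or more. The results of 1 list gene and 1 promoter window are not reported here. Members and lists were chosen with earlier results of these data known. Shares were thinned to 1000 UMIs, with Clopper-Pearson intervals, and a count of 0 was given a floor of 3 counts.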

Additional observations from a re-analysis of the deposited data

Results flagged for a closer look

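MT2A moved in opposite directions in different classes at 30 dpi. In astrocyte-like nuclei it stood 1.77 higher on the log2 scale than in intact lumbar cord (155 against 45.4 CPM), above all 3 intact libraries. In microglia-like nuclei its log2 ratio was -1.62 (7.40 against 22.8 CPM), below all 3 intact libraries. It was listed because 1 class was called higher and the other lower, and the difference between the classes was not tested, since each group holds 1 library. The microglia-like value was called lower at 14 dpi too, when the astrocyte-like level lay within the intact range. Both 30 dpi calls were lost after thinning of nuclei to 1000 UMIs.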

How the results depend on the processing

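Of 70 calls of members, 68 were kept without doublet removal and at Leiden resolution 0.5. Median-of-ratios size factors kept 67, and the mean of the intact libraries as reference kept 64. Leaving nuclei with a UMI of AQP4 or GJA1 out of classes other than the astrocyte-like kept 65, and astrocyte-like calls could not move. Calls higher then went from 10 to 8 in OPC-like and 9 to 6 in neuron-like nuclei. A call at 1.5-fold or with no condition on the intact range only loosens the rule, so all 70 were kept by construction. At 1.5-fold calls higher went from 18 to 24 in astrocyte-like, 10 to 13 in OPC-like and 16 to 23 in oligodendrocyte-like nuclei. They went from 14 to 17 in microglia-like and 9 to 12 in neuron-like nuclei. Of alternatives chosen after seeing the data, 70 calls were kept with GPNMB- and CHIT1-led clusters counted as microglia-like. With the mixed cluster counted as oligodendrocyte-like 67 were kept. These settings change the microglia-like and the oligodendrocyte-like class respectively, and calls in other classes could not move. The first naming rule kept 65, and 62 were kept without the 5 nuclei with most UMIs. The 8 calls lost in that last case were SOCS3 at 7 dpi, VIM at 14 dpi, CD44 at 30 dpi and CHI3L1 at 6 mpi in astrocyte-like nuclei, SERPINA3 at 6 mpi in OPC-like and microglia-like, MT2A at 14 dpi in microglia-like and SOCS3 at 7 dpi in neuron-like nuclei. Thinning to 1000 UMIs kept 35: calls higher went from 18 to 11 in astrocyte-like, 10 to 5 in OPC-like, 16 to 8 in oligodendrocyte-like and 9 to 1 in neuron-like nuclei, calls lower from 3 to 0, and list calls from 64 to 20, with fewer UMIs by construction. Subtracting free RNA kept 49, and calls in microglia-like nuclei went from 14 to 8. With no minimum of UMIs, 2.14% of all genes were called higher, not 2.76%, and 0.954% lower, not 1.32%. The SERPINA3 ratio between astrocyte kinds went from 25.8 to 1.42 by gene pair, a grouping that divides the nuclei differently, and the cause was not tested. These log2 ratios reversed: CHI3L1 in astrocyte-like nuclei at 6 mpi (-0.55), SERPINA3 in OPC-like nuclei at 30 dpi (-0.84) and VIM in neuron-like nuclei at 7 dpi (-0.023) after thinning, and SERPINA3 in microglia-like nuclei at 6 mpi (-0.92) after subtraction, the last from 1 UMI against 5. The ratios after thinning rest on few UMIs as well and were given no interval. No paired analysis was possible because the groups share fewer than 2 replicate numbers. Few nuclei limit the astrocyte-like values after injury, and with 1 library per group no replicate could be left out.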

Other observations

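A cluster left without a name held markers of both oligodendrocytes and astrocytes, with 41 nuclei at 7 dpi. In it GFAP stood at 449, 652 and 508 CPM in intact cervical, thoracic and lumbar cord and at 1539, 229, 200 and 192 CPM at 7, 14 and 30 dpi and 6 mpi. SERPINA3 stood at 1.46 to 5.94 CPM in the intact segments, at 502 CPM at 7 dpi and at 4.36 to 13.9 CPM later. CHI3L1 stood at 2.51 to 4.38 CPM intact and 482 CPM at 7 dpi, and MT2A at 18.8 to 51.1 CPM intact and 727 CPM at 7 dpi. For SERPINA3, CHI3L1 and MT2A the 7 dpi library was the high one of the 7. These nuclei entered the comparisons above only in the alternative that counts them as oligodendrocyte-like.

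In ependymal-like nuclei OSMR stood at 40.5 to 58.4 CPM in the 3 intact libraries and at 54.5, 58.7 and 69.9 CPM at 7, 14 and 30 dpi. SOCS3 was at 0 UMIs in 5 of these 6 libraries, with 2 UMIs at 30 dpi. STAT3 stood at 38.1, 26.4 and 37.9 CPM in the vessel and fibroblast marker cluster of intact cervical, thoracic and lumbar cord, where SERPINA3 and CHI3L1 had no UMI.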
